A study of Mus musculus with 18 samples.

Results

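The phagocyte NADPH oxidase and 4 enzymes that act on reactive oxygen species were followed through RANKL treatment as a set of 9 genes, taken as the rows of the deposited table that carry the symbols Cybb, Cyba, Ncf1, Ncf4, Rac2, Sod2, Cat, Gpx1 and Nqo1. All 9 were among the 34745 genes of the table, each on 1 row, and all 9 passed the filter on low counts that left 14241 genes for testing. RNA had been sequenced from mouse bone marrow-derived macrophages, cells that grow out of bone marrow in the growth factor M-CSF, at 0, 1 or 3 days of RANKL, the cytokine that turns them into bone-resorbing osteoclasts. The 18 libraries formed 6 groups of 3. Of these, 9 were labelled Zmat1 knockout (KO) and 9 wild type (WT).

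The mice, on a C57BL/6 background, carried a whole-body Zmat1 knockout or were wild-type littermates from crosses of heterozygotes. The study's methods give the donors as 4 to 8 weeks old. All groups received M-CSF before RANKL, for 3 days by the labels and 4 days by the methods, and the day 0 groups received no RANKL. The labels do not say whether the libraries of a group came from separate animals, so p-values measure the spread between these libraries, which may be technical. The WT day 1 titles number 2 libraries 1 and none 3. These are told apart here by their titles, written with a single or a double hyphen. Double-hyphen titles belong to WT day 0 library 1, one WT day 1 library 1, KO day 0 library 2 and KO day 1 libraries 1 and 2. No day 3 library has such a title, so title style and day are in part confounded.

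The phagocyte oxidase moves electrons from NADPH across a membrane onto oxygen and so makes superoxide. Its membrane core is a pair of proteins, gp91phox (Cybb), which holds the catalytic centre, and p22phox (Cyba), which stabilises it. The cytosolic subunits p47phox (Ncf1, the organiser) and p40phox (Ncf4, which binds phosphoinositides) join the core on activation, as does the small GTPase Rac2. Superoxide is converted to hydrogen peroxide by superoxide dismutases, of which Sod2 encodes the mitochondrial one. Catalase (Cat), a peroxisomal enzyme, and glutathione peroxidase 1 (Gpx1) remove hydrogen peroxide. Nqo1 encodes a quinone reductase known as a target of the transcription factor NRF2. Reactive oxygen species are known to take part in RANKL signalling in osteoclast precursors.

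Markers of the labelled cell type were present in every group. Levels are given as CPM, the reads of a gene scaled to the size of its library after TMM normalisation, or as FPKM, which also divides by transcript length. The summed level of 8 macrophage markers ran from 10551 to 14552 CPM on day 0 and from 3088 to 4645 CPM on day 3. The summed level of 10 osteoclast markers ran from 224 to 988 CPM on day 0 and from 8293 to 23381 CPM on day 3. RNA of other cells was present too. The summed level of 10 neutrophil markers was 689 to 3140 CPM in the WT day 0 libraries and 3778 to 12252 CPM in the KO day 0 libraries, and on day 3 it was 38.5 to 71.3 CPM (WT) and 104 to 1188 CPM (KO). The summed level of 8 stromal markers ran from 100.6 to 5064 CPM on day 0, from 11605 to 14978 CPM in WT day 3 libraries and from 21654 to 31202 CPM in KO day 3 libraries. In these 4 lists Calcr, an osteoclast marker, was at 0 in all 12 libraries of days 0 and 1, and no marker was at 0 in every library. In bulk RNA fewer cells of a type and less RNA per cell cannot be told apart. Reads of Zmat1 were found in all 18 libraries. The lowest count was 49 among those labelled KO and 32 among those labelled WT, so KO and WT are used here as labels only. Total counts ran from 13789775 to 17559958 per library.

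**Figure D1:**
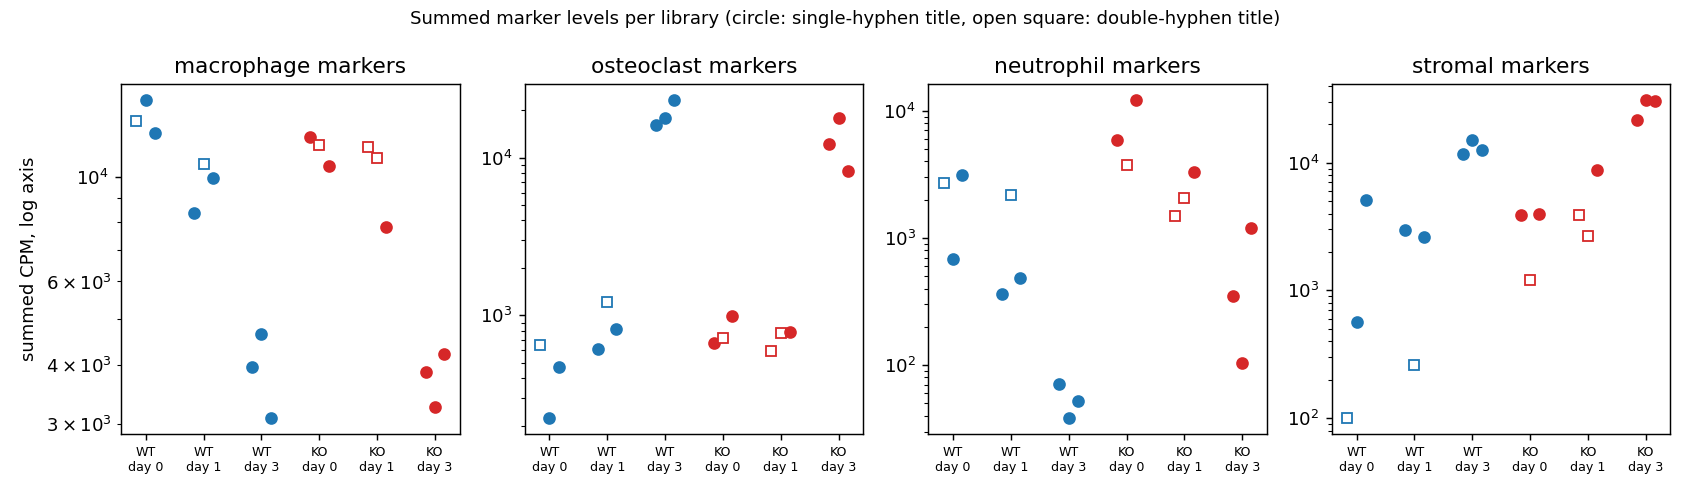
Summed CPM (log axis) of the macrophage, osteoclast, neutrophil and stromal marker lists in each of the 18 libraries, by label and day (blue WT, red KO, open squares for double-hyphen titles). Within each label macrophage and neutrophil sums were lowest on day 3, osteoclast and stromal sums highest, and the KO day 3 stromal sums (21654 to 31202 CPM) lay above the WT ones (11605 to 14978 CPM).

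Levels of different genes were compared on FPKM. Cyba had the highest mean FPKM of the 9 genes in all 6 groups, from 368 ± 31.8 (KO day 3) to 964 ± 94.9 (WT day 1; SD, n = 3), and Cat was next in all 6. On day 0 Cybb stood at 197 ± 36.8 FPKM (WT) and 206 ± 30.1 (KO), ahead of Rac2 at 132 ± 20.4 and 167 ± 47.5. Nqo1 was the lowest of the 9 in 5 groups, for example 3.75 ± 0.296 FPKM on WT day 0. In the WT day 1 group the mean FPKM of Nqo1 (23.1 ± 10.4) and of Sod2 (22.0 ± 7.99) differed by less than the spread between libraries. On day 3 Rac2, at 174 ± 31.4 FPKM (WT) and 138 ± 7.19 (KO), was ahead of Cybb, at 48.5 ± 18.9 and 54.0 ± 17.9.

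**Figure D2:**
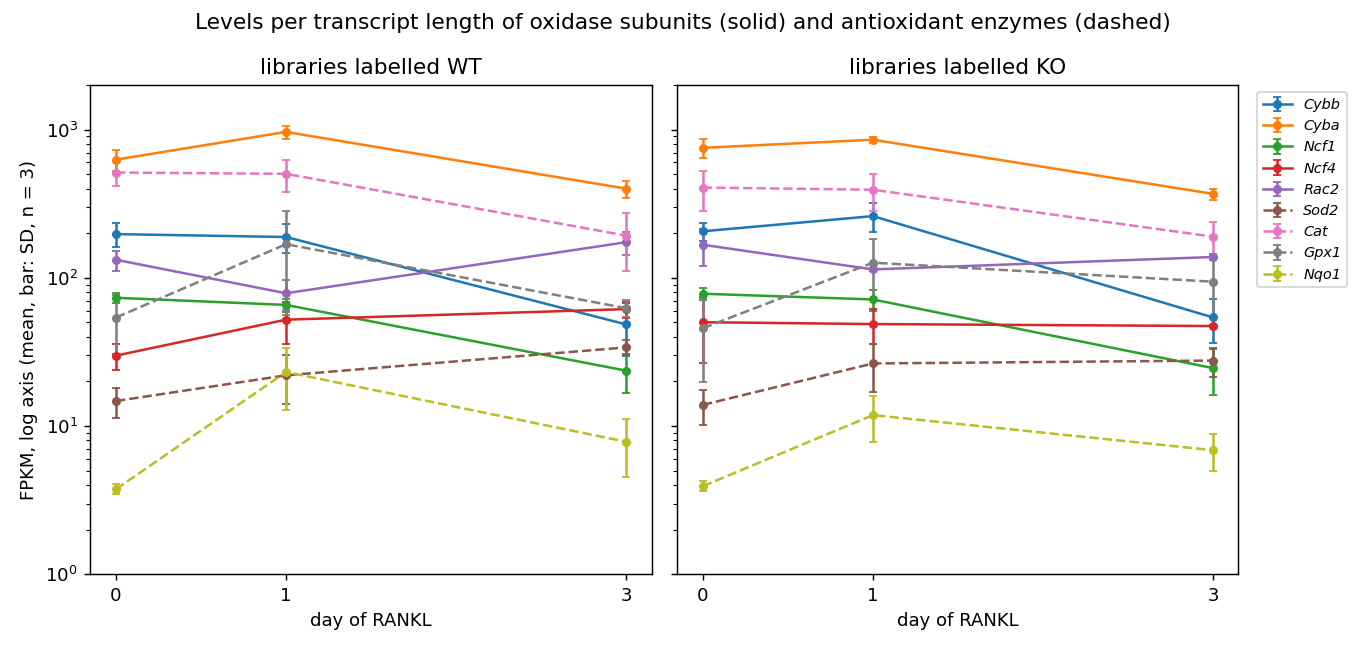
Mean FPKM (log axis, bars SD, n = 3) of the oxidase subunits (solid lines) and the antioxidant enzymes (dashed lines) by day of RANKL, in the libraries labelled WT (left) and KO (right). Cybb, Cyba, Ncf1 and Cat were at their lowest on day 3 in both labels, and Nqo1 was at its highest on day 1.

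The promoters of Cybb, Cyba and Ncf1 are shown because these 3 subunits were called lower on day 3 than on day 0 in both labels, as given below. Each is the 250 bases before the annotated start, from RefSeq (build GRCm38.p6), written 5′ to 3′ on the gene's own strand, which is the minus strand for all 3. Capitals mark a match to 1 of 3 motifs searched on both strands. The motifs were TGANTCA (the AP-1 site), GAGGAA (the core of PU.1 sites) and TGACNNNGC (the core of the antioxidant response element), and none of the 3 overlapped another in these windows. The stretches cover no exon of the GENCODE M21 annotation. That of Cybb (chrX:9469325-9469574) lies inside the longest annotated extent of Cybb itself, that of Cyba (chr8:122432941-122433190) lies within the predicted gene Gm20388, which ran on the other strand and had 0 counts in every library, and that of Ncf1 (chr5:134229626-134229875) lies in no annotated gene.
Cybb: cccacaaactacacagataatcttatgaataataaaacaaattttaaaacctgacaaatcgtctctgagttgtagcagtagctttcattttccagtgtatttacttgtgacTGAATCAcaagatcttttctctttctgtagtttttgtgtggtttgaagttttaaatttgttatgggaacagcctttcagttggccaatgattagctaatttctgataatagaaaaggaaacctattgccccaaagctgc
Cyba: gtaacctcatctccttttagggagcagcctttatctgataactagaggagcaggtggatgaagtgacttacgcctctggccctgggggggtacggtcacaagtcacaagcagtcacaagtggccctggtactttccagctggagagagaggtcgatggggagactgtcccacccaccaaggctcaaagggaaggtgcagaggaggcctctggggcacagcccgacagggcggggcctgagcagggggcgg
Ncf1: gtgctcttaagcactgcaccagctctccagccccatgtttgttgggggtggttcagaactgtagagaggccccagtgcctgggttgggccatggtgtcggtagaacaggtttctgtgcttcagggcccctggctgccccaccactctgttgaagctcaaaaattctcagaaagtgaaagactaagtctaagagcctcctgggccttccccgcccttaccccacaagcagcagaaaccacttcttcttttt

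Windows of 300 bases, these 250 and the first 50 transcribed ones, were present for 7 of the 9 genes (all but Ncf4 and Rac2). The Cybb window held 1 TGANTCA match, which starts 139 bases before the start, and 1 GAGGAA match on the other strand at position 10 of the transcribed part, which is not printed. The windows of Cyba and Ncf1 held none of the 3 motifs. Among the antioxidant genes, Cat and Sod2 held 1 GAGGAA match each (235 and 203 bases before the start), and Gpx1 and Nqo1 held none of the 3. Of all 32851 windows, 7.81% held TGANTCA, 28.3% held GAGGAA and 12.4% held TGACNNNGC.

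The first comparison asked how the genes differ between precursors and cells given RANKL for 3 days. In the libraries labelled WT, 4 of the 9 genes were lower (Cybb, Ncf1, Cat and Cyba) and 2 higher (Sod2 and Ncf4) by edgeR (quasi-likelihood test, Benjamini-Hochberg adjustment, threshold 0.05), against 50.2% of all genes tested that were called. In those labelled KO the same 4 were lower and none was higher, against 42.5% of all genes. Lower calls made up 26.5% (WT) and 22.3% (KO) of all genes, and higher calls 23.7% and 20.2%. The median log2 fold change of the 9 genes was -0.17 in WT and -0.56 in KO, and that of all genes was -0.03 and -0.01. Scaling by total counts in place of TMM moved the median log2 fold change of all genes by 0.363 in WT and by 0.289 in KO, and turned the split of higher and lower calls from 3370 and 3773 genes to 5153 and 2221 (WT), and from 2873 and 3173 to 4274 and 1963 (KO). A test on log2(FPKM + 1) with limma gave 5568 and 2104 (WT), and 4742 and 2033 (KO). Cybb, Cyba, Ncf1 and Cat were lower and called in both labels under these scalings also.

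Cybb, the catalytic subunit, showed the largest change of the 9 from day 0 to day 3 in both labels. It measured 1661, 1050 and 1394 CPM in WT day 0 libraries 1 to 3 and 265, 367 and 152 CPM in the WT day 3 libraries. In the KO libraries the values were 1329, 1292 and 1542 CPM on day 0 and 285, 199 and 419 CPM on day 3. All 6 day 3 libraries lay below all 12 libraries of days 0 and 1, of which the lowest was at 863 CPM. The fall was 5.23-fold in WT (log2 fold change -2.39, SE 0.359, adjusted p = 0.000127) and 4.61-fold in KO (-2.21, SE 0.357, adjusted p = 0.000356).

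Cyba, the partner of Cybb in the membrane, fell less. Its WT levels were 659, 454 and 463 CPM on day 0 and 271, 291 and 214 CPM on day 3. Its KO levels were 499, 749 and 607 CPM on day 0 and 249, 217 and 271 CPM on day 3. The day 3 libraries of both labels (214 to 291 CPM) again lay below all others (454 to 798 CPM). The fall was 2.03-fold in WT (log2 fold change -1.02, SE 0.179, adjusted p = 0.000384) and 2.52-fold in KO (-1.33, SE 0.180, adjusted p = 0.000106). Within libraries, the FPKM of Cyba was 2.75 to 3.59 times that of Cybb on WT day 0 and 6.58 to 11.7 times on WT day 3. In KO the ratio ran from 3.11 to 4.81 on day 0 and from 5.38 to 9.07 on day 3. The ratios of the days did not overlap in either label. They were chosen after the values were seen and were not tested.

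Ncf1, the cytosolic organiser, followed Cybb. It measured 600.3, 558 and 473 CPM in the WT day 0 libraries and 159, 162 and 87.4 CPM in the WT day 3 libraries, with 520.0, 575 and 601 CPM and 138, 95.8 and 207 CPM in KO. Its day 3 libraries did not overlap any of days 0 and 1 (378 to 609 CPM). The fall was 3.99-fold in WT (log2 fold change -1.996, SE 0.285, adjusted p = 8.6e-05) and 3.85-fold in KO (-1.95, SE 0.284, adjusted p = 0.000174). Gtf2ird2 overlaps Ncf1 on the other strand, and whether the counting used strand is not given in the sources used here. Gtf2ird2 had at most 161 counts in any library, where Ncf1 had at least 1557.

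Ncf4, the other cytosolic subunit, was not lower on day 3 in WT. It measured 134, 92.9 and 82.8 CPM on WT day 0 and 169, 144 and 176 CPM on WT day 3, and these groups did not overlap. In the KO libraries it measured 116, 135 and 251 CPM on day 0 and 124, 127 and 138 CPM on day 3, which overlap. Ncf4 rose 1.58-fold in WT (log2 fold change 0.66, SE 0.260, adjusted p = 0.0457), and the KO value was -0.36 (SE 0.258, adjusted p = 0.269). Its call in WT was lost without WT day 0 library 2 or 3 or any single WT day 3 library (log2 fold change 0.55 to 0.74, adjusted p = 0.0547 to 0.125) and with title style as a covariate (adjusted p = 0.0846). Without KO day 0 library 3, which had the highest Ncf4 and the highest neutrophil sum (12252 CPM), the KO value was 0.08 (adjusted p = 0.788). The part of neutrophil RNA in Ncf4 levels was not tested. The FPKM of Ncf4 was 0.359 to 0.481 times that of Ncf1 on WT day 0 and 1.92 to 4.35 times on day 3, and in KO 0.480 to 0.900 and 1.44 to 2.86 times. Thus Ncf1 was the more abundant of the pair in all 6 day 0 libraries and Ncf4 in all 6 day 3 libraries, a description chosen after the values were seen.

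Rac2, the GTPase, was not called between days 0 and 3 in either label. Its WT levels were 516, 465 and 349 CPM on day 0 and 431, 389 and 526 CPM on day 3 (log2 fold change 0.02, SE 0.234, adjusted p = 0.956). Its KO levels were 442, 489 and 698 CPM on day 0 and 352, 384 and 369.6 CPM on day 3, without overlap (log2 fold change -0.56, SE 0.235, adjusted p = 0.0675). The 95% interval of the difference was -0.48 to 0.52 in WT and -1.06 to -0.06 in KO. The highest value was again that of KO day 0 library 3. In a fit on only the 6 KO libraries compared, Rac2 passed the threshold (adjusted p = 0.0499).

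Catalase was the antioxidant enzyme that fell. Cat measured 1832, 2079 and 1396 CPM on WT day 0 and 601, 693 and 261 CPM on WT day 3. Its KO levels were 1588, 1695 and 861 CPM on day 0 and 620.3, 364 and 584 CPM on day 3. The day 3 libraries (261 to 693 CPM) lay below all 12 others (811 to 2473 CPM). The fall was 3.41-fold in WT (log2 fold change -1.77, SE 0.409, adjusted p = 0.0027) and 2.64-fold in KO (-1.40, SE 0.404, adjusted p = 0.0129). The KO call was lost without KO day 0 library 2 (-1.20, adjusted p = 0.05) and without KO day 3 library 2 (-1.20, adjusted p = 0.0605).

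Sod2, the mitochondrial dismutase, had the opposite sign. It measured 82.0, 59.2 and 46.3 CPM on WT day 0 and 109, 101 and 121 CPM on WT day 3, without overlap, and 44.1, 80.5 and 49.2 CPM and 92.1, 110.5 and 74.9 CPM in KO, with overlap. Sod2 rose 1.77-fold in WT (log2 fold change 0.82, SE 0.320, adjusted p = 0.0451), and the KO value was 0.68 (SE 0.320, adjusted p = 0.1). The WT call was lost without WT day 0 library 2 or 3 or any single WT day 3 library (log2 fold change 0.67 to 0.88, adjusted p = 0.0647 to 0.123). The KO value passed the threshold without KO day 0 library 2 (1.013, adjusted p = 0.0362), when scaled by total counts (0.99, adjusted p = 0.0185), with limma on FPKM (0.95, adjusted p = 0.0161), with title style as a covariate (0.90, adjusted p = 0.0196) and without the 5 double-hyphen libraries (1.04, adjusted p = 0.00361).

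Gpx1 and Nqo1 were not called between days 0 and 3 in either label. Gpx1, the glutathione peroxidase, measured 254, 258 and 99.2 CPM on WT day 0 and 201, 159 and 185 CPM on WT day 3 (log2 fold change -0.17 with SE 0.539, adjusted p = 0.807), and its sign turned to 0.21 when libraries were scaled by total counts. In KO it measured 93.7, 299 and 125 CPM on day 0 and 124, 402 and 325 CPM on day 3 (0.72, SE 0.541, adjusted p = 0.298). The 95% intervals of the difference, -1.32 to 0.98 (WT) and -0.44 to 1.88 (KO), were the widest of the 9 genes. Nqo1 went from 7.34, 6.27 and 5.65 CPM to 13.9, 11.997 and 5.39 CPM in WT (log2 fold change 0.70 with SE 0.353, adjusted p = 0.11), and the lowest day 3 library lay below all of day 0. In KO it went from 5.85, 7.69 and 6.26 CPM to 9.77, 6.36 and 12.2 CPM (0.52, SE 0.353, adjusted p = 0.249). Nqo1 in WT passed the threshold without WT day 3 library 3 (1.015, adjusted p = 0.0234) and when scaled by total counts (1.06, adjusted p = 0.0309).

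**Figure D3:**
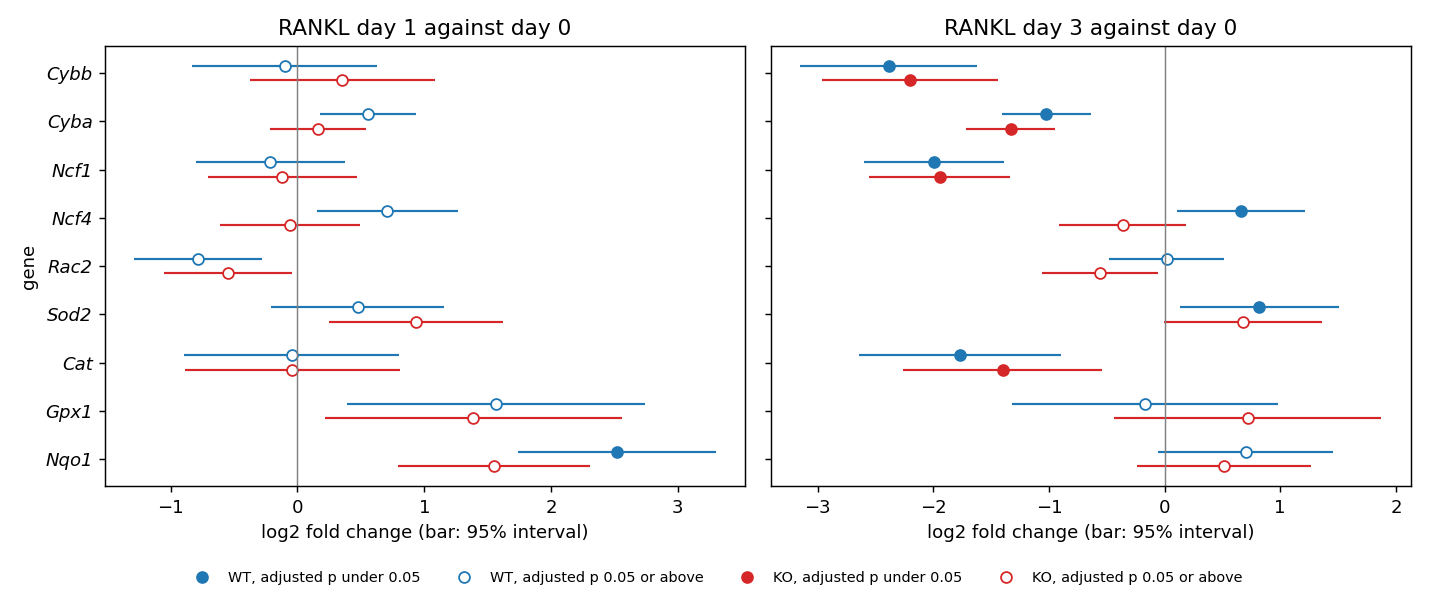
Log2 fold changes of the 9 genes on day 1 (left) and day 3 (right) of RANKL against day 0, with 95% intervals from the edgeR fit, for libraries labelled WT (blue) and KO (red); filled points had an adjusted p under 0.05. On day 3 Cybb, Ncf1, Cat and Cyba lay below 0 in both labels, and on day 1 Nqo1 in WT was the single filled point, at 2.52.

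The libraries of day 0 and day 3 did not overlap for 6 of the 9 genes in WT and 5 in KO, against 62.5% and 58.8% of all genes tested. The macrophage markers moved with the falls of Cybb, Cyba, Ncf1 and Cat, with 7 of 8 called lower in each label (median log2 fold change -2.24 in WT and -1.88 in KO). All 10 neutrophil markers were called lower in both labels (medians -5.02 and -3.82). Stromal markers were called higher, 6 of 8 in WT and 8 of 8 in KO (medians 2.58 and 3.16), as were 9 of 10 osteoclast markers in each label (7.30 and 6.25). The macrophage sum was lowest in WT day 3 library 3 (3088 CPM) and KO day 3 library 2 (3258 CPM), which also had the lowest Cybb, Ncf1, Cyba and Cat of their labels. The osteoclast sum was highest in these libraries within each label (23381 and 17734 CPM). The part that cell composition had in the members' levels was not tested.

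The first day of RANKL was compared with day 0 to see the early response. Nqo1 alone was called in the libraries labelled WT, against 2.35% of all genes, and none of the 9 was called in those labelled KO, against 0.0211%. In KO 4 genes (Nqo1, Gpx1, Sod2 and Rac2) had an unadjusted p under 0.05, against 10.2% of all genes, and the DESeq2 Wald test called Nqo1. Over the 9 genes the median log2 fold change was 0.48 in WT and 0.16 in KO, and over all genes it was 0.00 in both. Nqo1 measured 39.9 CPM in the single-hyphen WT day 1 library 1, 22.0 in the double-hyphen one and 48.4 in library 2. The KO day 1 libraries measured 15.1, 18.6 and 24.3 CPM. All 6 day 1 libraries lay above all 12 of days 0 and 3 (5.39 to 13.9 CPM). The rise was 5.73-fold in WT (log2 fold change 2.52, SE 0.365, adjusted p = 0.0256), and the KO value was 1.55 (SE 0.356, adjusted p = 0.154).

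The Nqo1 call was lost in the fit on only the 6 libraries compared (adjusted p = 0.448), without WT day 0 library 2 (2.51, adjusted p = 0.121), without the single-hyphen WT day 1 library 1 (2.47, adjusted p = 0.144) and without WT day 1 library 2 (2.27, adjusted p = 0.0642). In the DESeq2 Wald test Nqo1 was called in both labels (KO 1.56, adjusted p = 0.00723). Nqo1 also differed with title style among the day 1 libraries, at 15.1, 18.6 and 22.0 CPM in the double-hyphen ones and 24.3, 39.9 and 48.4 CPM in the others. No day 3 library has a double-hyphen title, so title style could be compared on days 0 and 1 only. There the log2 difference of Nqo1 between double- and single-hyphen libraries was -0.23 (adjusted p = 0.563). On day 0 Nqo1 was the higher in the double-hyphen libraries, at 7.34 and 7.69 CPM against 5.65 to 6.27 CPM. None of the 9 genes was called for style, against 23.2% of all genes.

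Gpx1 was above its day 0 values on day 1 in both labels but did not pass the threshold in the edgeR fit. It measured 277, 530.5 and 1000.1 CPM on WT day 1, in the order single hyphen, double hyphen and library 2, and 357, 371 and 623 CPM on KO day 1. Both groups lay above their day 0 groups without overlap. The log2 fold change was 1.56 in WT (SE 0.551, adjusted p = 0.126) and 1.39 in KO (SE 0.548, adjusted p = 0.418). In the DESeq2 Wald test Gpx1 was called in WT (1.56, adjusted p = 0.0422). Cyba in WT did not overlap its day 0 group either, at 736, 798 and 780 CPM on day 1 (0.55, SE 0.177, adjusted p = 0.0988), but not in KO, at 716, 707 and 654 CPM (0.16, SE 0.177, adjusted p = 0.807). Cyba in WT passed the threshold in the DESeq2 Wald test (0.54, adjusted p = 0.0307), with title style as a covariate (0.57, adjusted p = 0.0317) and without the 5 double-hyphen libraries (0.74, adjusted p = 0.0388).

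Rac2 had the most negative log2 fold change on day 1 in both labels. It measured 174, 348 and 252 CPM on WT day 1 and 395, 396 and 323 CPM on KO day 1, below day 0 without overlap in both labels. The log2 fold change was -0.78 in WT (SE 0.236, adjusted p = 0.0842) and -0.55 in KO (SE 0.235, adjusted p = 0.457). The WT value passed the threshold without WT day 0 library 3 (-0.93, adjusted p = 0.0415) and without the double-hyphen WT day 1 library 1 (-1.05, adjusted p = 0.0151). With title style as a covariate (-0.80, adjusted p = 0.0411) and in the DESeq2 Wald test (-0.80, adjusted p = 0.0207) it passed too. The same held with both WT day 1 libraries numbered 1 averaged (-0.84, adjusted p = 0.0443). In all, the groups of day 0 and day 1 did not overlap for 4 genes in WT (Cyba, Rac2, Gpx1 and Nqo1) and 3 in KO (Rac2, Gpx1 and Nqo1), against 16.5% and 19.1% of all genes. By the threshold of the study (unadjusted p under 0.05 and a fold change above 1.5 or below 0.66), 4 members passed in WT, against 11.2% of all genes, and 3 in KO, against 5.05%. Those in WT were Nqo1, Gpx1, Rac2 and Ncf4, and those in KO were Nqo1, Gpx1 and Sod2.

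The other subunits and enzymes had no call on day 1 in the edgeR fit of all 18 libraries. Without the 5 double-hyphen libraries, the WT log2 fold changes of Ncf4 and Sod2 were larger, at 1.11 and 0.89. Cybb measured 863, 1648 and 1315 CPM on WT day 1 and 2317, 1672 and 1329 CPM on KO day 1, with log2 fold changes of -0.10 and 0.35 (adjusted p = 0.906 and 0.778). Ncf1 had values of -0.21 and -0.12 (adjusted p = 0.716 and 0.923), and Cat -0.05 and -0.04 (adjusted p = 0.966 and 0.986). Ncf4 and Sod2 differed in size between the labels, with 0.71 (WT, adjusted p = 0.141) and -0.06 (KO, adjusted p = 0.964) for Ncf4, and 0.48 (adjusted p = 0.422) and 0.93 (adjusted p = 0.349) for Sod2. The differences between the labels in these responses were not past the threshold, as given with the interaction.

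Between day 1 and day 3 the calls were 6 lower and 1 higher in WT, against 32% of all genes (19.3% lower and 12.7% higher), and 5 lower in KO, against 28% (15.5% lower and 12.5% higher). Cybb, Cyba, Ncf1 and Cat fell in both labels, with log2 fold changes of -2.29 and -2.56 for Cybb, -1.58 and -1.49 for Cyba, -1.78 and -1.83 for Ncf1, and -1.72 and -1.36 for Cat (adjusted p at most 0.022). Nqo1 fell too, with -1.82 in WT (adjusted p = 0.00182) and -1.03 in KO (adjusted p = 0.0385). In WT, Gpx1 fell (-1.73, adjusted p = 0.0277) and Rac2 rose (0.80, adjusted p = 0.0193). These comparisons share their day 3 libraries with those against day 0.

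The calls of Cat and Nqo1 after day 1 in KO, and of Gpx1 and Rac2 in WT, were lost without some single libraries. Without single libraries, the log2 fold change ran from -1.59 to -1.13 for Cat and from -1.26 to -0.80 for Nqo1. It ran from -2.06 to -1.16 for Gpx1 and from 0.60 to 1.10 for Rac2, so no sign turned. Cat in KO was not called without KO day 1 library 1 (adjusted p = 0.0752), KO day 1 library 2 (0.0958) or KO day 3 library 2 (0.0981), nor with title style as a covariate (0.126). Nqo1 in KO was not called without any of the KO libraries of these days except KO day 3 library 3 (adjusted p = 0.0541 to 0.154 in the other 5 fits), nor with the replicate number as a block (adjusted p = 0.054), without the low-count filter (0.0542), with total counts (0.123) or with limma on FPKM (0.128). Gpx1 in WT was not called without any of the WT libraries of these days except the single-hyphen WT day 1 library 1 (adjusted p = 0.0535 to 0.136), nor with total counts (0.0581) or with limma on FPKM (0.0879). Rac2 in WT was not called without the single-hyphen WT day 1 library 1 (adjusted p = 0.0563), WT day 1 library 2 (0.0531) or WT day 3 library 3 (0.0824), nor in a fit on only these 6 libraries (0.0609). Without the 5 double-hyphen libraries, Cybb and Cyba remained called in KO and Ncf1 (-1.33, adjusted p = 0.0787), Cat (-0.60, adjusted p = 0.492) and Nqo1 (-1.33, adjusted p = 0.0979) did not. That fit leaves 1 KO day 1 library, which is assumed to vary like the other groups.

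**Figure D4:**
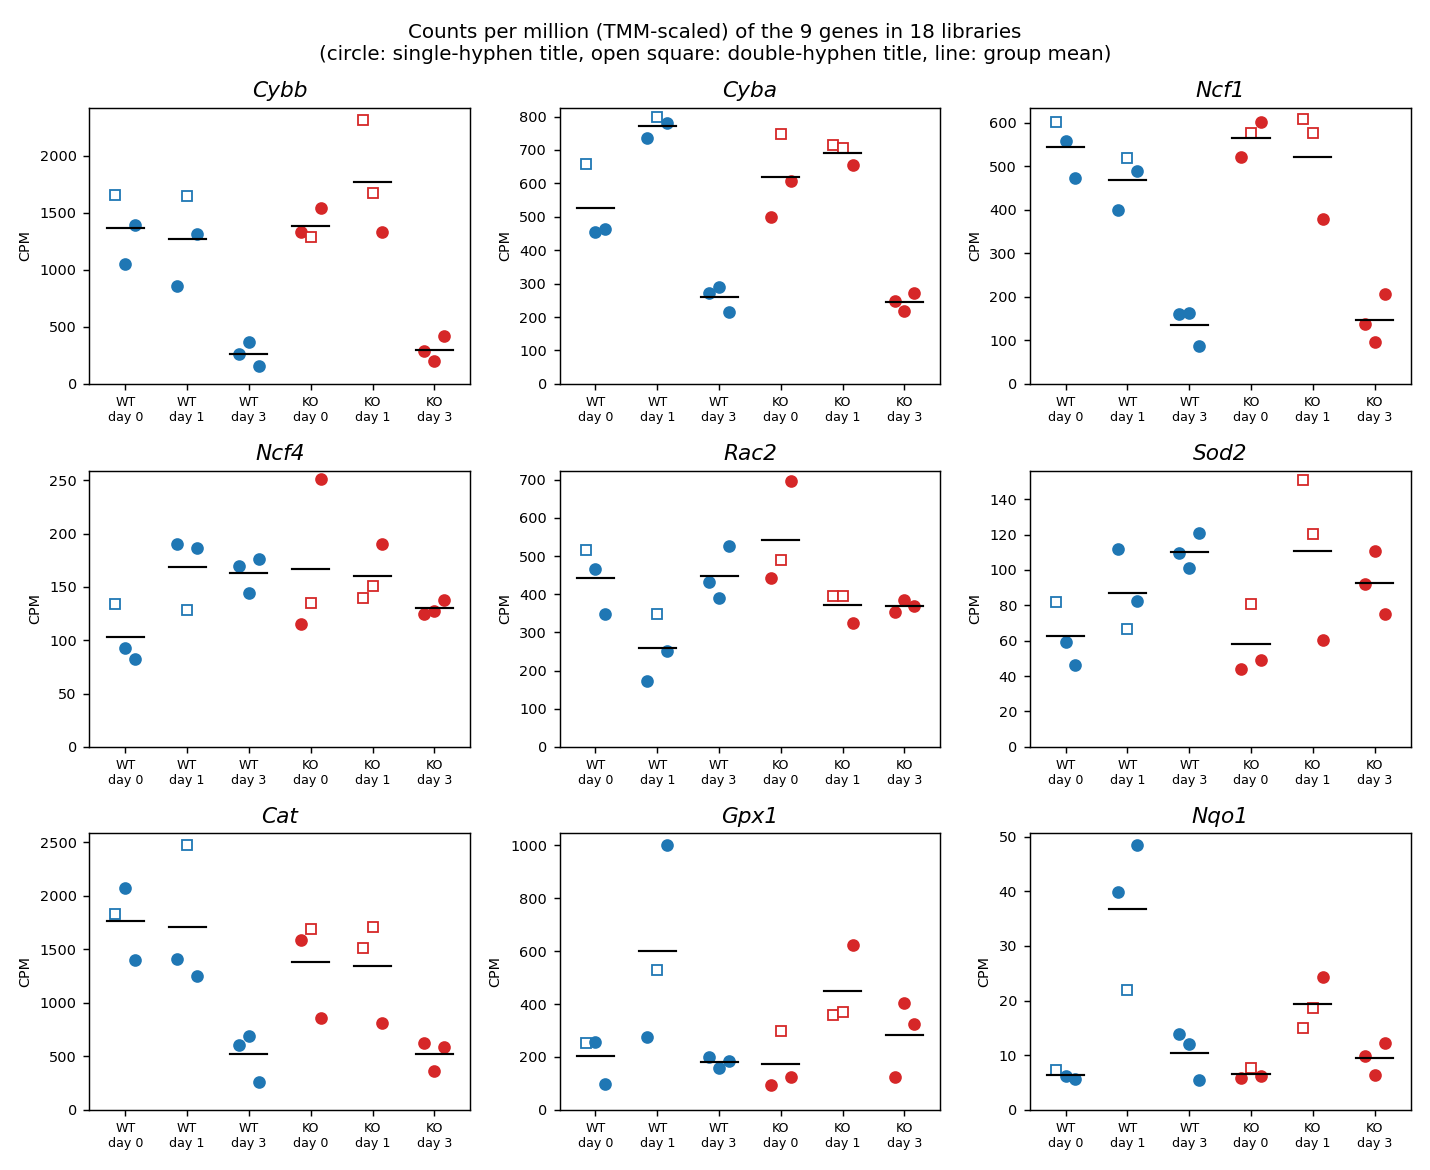
CPM of each of the 9 genes in each of the 18 libraries, by label and day (blue WT, red KO, open squares for double-hyphen titles, black lines for group means, linear axes from 0). Day 3 libraries lie below all others for Cybb, Cyba, Ncf1 and Cat, day 1 libraries lie above all others for Nqo1, and the 2 labels overlap on most days.

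The labels were compared to see whether the genes differ between libraries labelled KO and WT. None of the 9 genes was called on day 0, 1 or 3, against 0.119%, 0.112% and 0.14% of all genes, nor over the mean of the days, against 1.59% (edgeR). In the DESeq2 Wald test none was called either. Ncf4 on day 0, and Rac2 and Nqo1 on day 1, had an unadjusted p under 0.05 in the edgeR fit, against 7.59% of all genes on day 0 and 7.9% on day 1. None passed on day 3, against 10.7%, or over the mean of the days, against 18.4%. By the threshold of the study, 1 member passed on day 0 (Ncf4), against 3.95% of all genes, and 1 on day 1 (Nqo1), against 4.7%. The median log2 difference of the 9 genes, KO minus WT, was 0.04, -0.07 and -0.07 on days 0, 1 and 3, and that of all genes was 0.02, -0.02 and 0.02.

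Cybb levels of the labels differed by a log2 value of 0.02 on day 0 (95% interval -0.71 to 0.75), 0.47 on day 1 (-0.26 to 1.21) and 0.20 on day 3 (-0.53 to 0.93). For Cyba the values were 0.24 (-0.14 to 0.61), -0.16 (-0.53 to 0.22) and -0.07 (-0.45 to 0.30), with the narrowest intervals of the 9 genes. The value furthest from 0 on day 0 was that of Ncf4, at 0.70 (0.14 to 1.25, adjusted p = 0.562), and the same value was 0.28 in the alternative where it was smallest. On day 1 it was that of Nqo1, at -0.93 (-1.66 to -0.19, adjusted p = 0.563), and -1.19 to -0.68 in the alternatives. KO day 1 libraries 1 and 2 have double-hyphen titles but only 1 WT day 1 library has, so title style is unbalanced between these groups. On day 3 the value furthest from 0 was that of Gpx1, at 0.65 (-0.51 to 1.80, adjusted p = 0.699). Differences of these sizes were not distinguished from the spread between libraries.

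The libraries of the labels overlapped for all 9 genes on day 0 and did not overlap for Cyba on day 1 and for Ncf4 and Rac2 on day 3, against 10.1%, 12.6% and 29.2% of all genes. On day 3 Ncf4 was at 169, 144 and 176 CPM in WT and 124, 127 and 138 CPM in KO (log2 difference -0.33, adjusted p = 0.673). Rac2 was at 431, 389 and 526 CPM in WT and 352, 384 and 369.6 CPM in KO (-0.28, adjusted p = 0.697). Both were the lower in KO on day 3 and the higher in KO on day 0 by the fitted values (0.70 for Ncf4 and 0.29 for Rac2). All 8 stromal and all 10 neutrophil markers had values above 0 for KO minus WT on each day, with none called on a single day and 3 neutrophil markers called over the mean of the days. Their part in the differences of Ncf4 and Rac2 was not tested.

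Whether RANKL acted differently by label was tested by the interaction of label and day. None of the 9 genes was called on day 1 or day 3, nor was any other gene (0% of all genes; unadjusted p under 0.05 for 3.7% and 5.4%). The value furthest from 0 on day 3 was that of Ncf4 (KO minus WT of the log2 fold changes -1.03, 95% interval -1.81 to -0.24, adjusted p = 0.91), and on day 1 that of Nqo1 (-0.97, -2.03 to 0.09, adjusted p = 1). Ncf4 was the single member with an unadjusted p under 0.05 in the day 3 interaction, and it was also the 1 member past the threshold of the study, against 3.39% of all genes. For Cybb the day 3 value was 0.18 (-0.85 to 1.21), for Cyba -0.31 (-0.84 to 0.23), for Ncf1 0.05 (-0.78 to 0.88) and for Cat 0.37 (-0.83 to 1.57).

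The levels of the genes were also compared across libraries. Correlations are of log2 CPM between libraries, given without a test, and the libraries share their day, label and title style. Since the day 3 libraries form a cluster of their own, values were taken within the 6 of day 3 and within the 12 of days 0 and 1. Within day 3, Cybb, Cyba, Ncf1, Cat and Nqo1 were correlated with each other at 0.856 to 0.953, with Cybb and Ncf1 highest. Sod2 was correlated with Cybb at -0.839 and with Ncf1 at -0.798, and Ncf4 with Rac2 at 0.894. Among the 12 libraries of days 0 and 1, Sod2 was correlated with Cybb at 0.274 and with Ncf1 at 0.153, and Ncf4 with Rac2 at -0.108, so that the signs of these 3 relations were the opposite of those on day 3. Cybb and Ncf1 were at 0.59, Cybb and Cyba at 0.235, and Cyba and Ncf1 at -0.026. There Gpx1 and Nqo1 were at 0.806, and Rac2 and Nqo1 at -0.804. The groups of day 0 and day 1 did not overlap for these 3 genes, so both values carry the difference between the days.

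**Figure D5:**
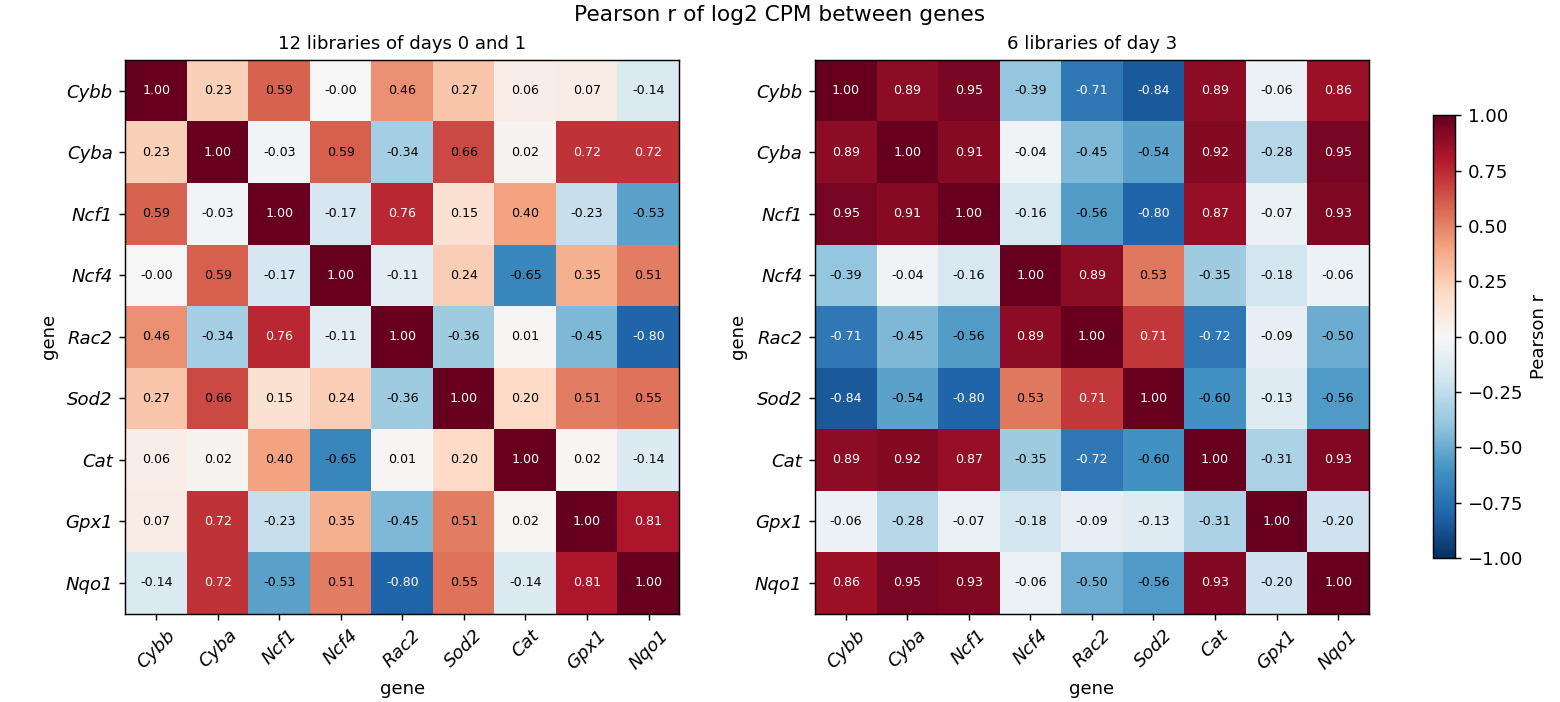
Pearson correlations of log2 CPM between the 9 genes over the 12 libraries of days 0 and 1 (left) and the 6 libraries of day 3 (right), colours from -1 (blue) to 1 (red). Cybb, Cyba, Ncf1, Cat and Nqo1 form a block of values from 0.856 to 0.953 on day 3, while on days 0 and 1 Cyba and Ncf1 were at -0.026.

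The levels of Cybb, Cyba, Ncf1 and Cat were separated between day 3 and the earlier days. Correlations with them over all 18 libraries carry that split. Over these libraries, the genes with a mean of at least 10 CPM whose pattern was most like that of each member were listed. For Cybb they were P2rx4, C3ar1 and Gpr65 (Pearson r 0.987, 0.982 and 0.981), for Cyba Gm10116, Myo1f and Dpep2 (0.972, 0.970 and 0.968), and for Ncf1 Kif3b, Tifa and Gpr65 (0.985 each). P2rx4 encodes an ATP-gated channel, C3ar1 a complement receptor and Gpr65 a proton-sensing receptor. For Cat they were Mfsd6, Clec4d and Slc48a1 (0.969, 0.961 and 0.958), and for Nqo1 Il2rg, Ptgr1 and Esd (0.927, 0.889 and 0.852). Ncf4 was nearest to Rab11fip1, Reep4 and Clec5a (0.795, 0.771 and 0.746), Rac2 to Mettl9, Stk17b and Pqlc1 (0.863, 0.808 and 0.802), Sod2 to Sltm, Opa3 and Speg (0.847, 0.836 and 0.815), and Gpx1 to Rexo4, Cisd2 and Plxna1 (0.773, 0.750 and 0.725).

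Other genes of the oxidase were taken from a list of 17, of which 16 were in the table and 10 were tested. From day 0 to day 3, 6 were lower and 1 higher in WT and 7 were lower in KO (median log2 fold change -0.79 and -0.87). Over all genes 26.5% were lower and 23.7% higher in WT, and 22.3% were lower in KO. Noxo1, a homologue of the organiser, fell with values of -2.18 and -1.27 (adjusted p = 0.000933 and 0.025). The counts of Noxo1 were low, at 36 to 76 (WT) and 38 to 52 (KO) on day 0. On day 3 they were 11 to 24 (WT) and 18 to 28 (KO). Prkcd, a kinase that phosphorylates the organiser, fell with values of -1.003 and -1.05, and Vav1, an exchange factor for Rac proteins, with -0.99 and -1.06. BC017643, the symbol under which the table lists Cybc1, a chaperone of the membrane core, was also called lower in both labels. Nox4, an oxidase that needs no cytosolic organiser and is named here after its values were seen, rose in WT (2.47, adjusted p = 0.0324), and its KO value was 2.13 (adjusted p = 0.053). It was near the floor on day 0, with 2, 0 and 16 counts in the WT libraries and 23, 4 and 13 in the KO libraries, against 39, 55 and 41 (WT) and 68, 56 and 94 (KO) on day 3. Stromal markers rose with Nox4, and their part in it was not tested.

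The antioxidant list beside the members held 39 genes, of which 38 were tested. From day 0 to day 3, 7 were higher and 16 lower in WT and 7 higher and 15 lower in KO (median log2 fold change -0.32 and -0.37), against 23.7% higher and 26.5% lower in WT and 20.2% and 22.3% in KO over all genes, and 4 higher and 14 lower were called in both. The largest falls were those of Sepp1 (-3.48 in WT and -2.95 in KO), a selenium carrier, Txnip (-2.02 and -1.49), an inhibitor of thioredoxin, Blvrb (-1.63 and -1.50), a biliverdin reductase, Msrb1 (-1.52 and -1.45), a methionine sulfoxide reductase, and Hmox2 (-1.52 and -1.30), a haem oxygenase. The genes higher in both were Sod3, the extracellular dismutase (2.50 and 3.67), Prdx3, the mitochondrial peroxiredoxin (0.85 and 0.64), Prdx2 (0.62 and 0.66) and Gss, which completes glutathione (0.71 and 0.48). Of the 8 genes that supply NADPH, 3 were higher and 3 lower in both labels. Mthfd2 (2.74 and 1.65), Me1 (1.67 and 1.85) and Idh2 (0.94 and 0.84) rose, of which Mthfd2 and Idh2 encode mitochondrial enzymes and Me1 the cytosolic malic enzyme. G6pdx (-1.42 and -1.27) and Pgd (-0.57 and -0.73), the dehydrogenases of the pentose phosphate pathway, and Idh1 (-1.14 and -0.90) fell.

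The remaining marker lists were low on day 3. The summed level of 6 B cell markers ran from 302 to 408 CPM on day 0 and from 26.5 to 93.0 CPM on day 3, that of 6 T or NK cell markers was at most 9.17 CPM in any library, that of 5 eosinophil markers at most 255 CPM and that of 6 erythroid markers at most 22.5 CPM. Genes of B cells were called lower from day 0 to day 3 in 5 of 6 cases in WT and 3 of 6 in KO, those of eosinophils in 4 and 3 of the 4 tested, the 1 T or NK cell gene tested in both labels, and none of the 3 erythroid genes tested was called.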

How the data were processed

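Per the labels, RNA-seq libraries were made from bone marrow macrophages of both genotypes. The deposited table holds whole-number counts per gene and FPKM values, both made by the authors. The submitters' processing notes name StringTie and the builds GRCm38.p4 and mm10. The aligner, the counter and its strand setting are not given in the sources used here. No column was left without a sample (0 columns). Of 34745 genes, 14241 passed filterByExpr. Counts were scaled by TMM and fitted with edgeR 4.0.16 in R 4.3.3 as 6 groups sharing one spread (quasi-likelihood F test, two-sided, Benjamini-Hochberg adjustment over all genes tested). Fold changes, SEs and 95% intervals come from that fit. The study's methods name edgeR with an unadjusted threshold. Log2 CPM for correlations used a prior count of 2. The scripts were tested on simulated data. RefSeq promoter windows (GRCm38.p6) were searched by Python 3.11.15, and figures were drawn with matplotlib 3.10.9.

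Alternatives were no and a stricter filter (5 CPM in 3 libraries), DESeq2 size factors, total counts, the DESeq2 1.42.0 Wald test, limma 3.58.1 on log2(FPKM + 1), which understates changes of low genes, only the libraries compared, the replicate number as a block, title style as a covariate, both WT day 1 libraries numbered 1 averaged, and each library left out. A fit without the 5 double-hyphen libraries was added after the data were seen. The members and lists were chosen with earlier results of these data known. Named beside the members are the marker lists, up to 5 genes a direction from each other list with the largest change among those called in both labels on day 3, and the 3 genes nearest to each member over 18 libraries among 9305 genes with a mean of at least 10 CPM. Some genes of these lists are counted but not reported by name here.

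Whether replicate numbers pair libraries was checked on the correlation of deviations from group means. It was above 0.1 for 3 of 3 pairs between KO days 0 and 3 (0.13 to 0.398) and KO days 1 and 3 (0.156 to 0.34) and not for every pair in the other 7 comparisons of groups. The labels do not say what a number shares.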

Additional observations from a re-analysis of the deposited data

How the results depend on the processing

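The log2 fold changes of 60 combinations of member and comparison were recomputed under the alternatives, 1076 values in all. Of these, 983 kept their direction and their side of the threshold, 48 lost a call, 20 gained one and 25 turned in sign, none of them a called value. Cybb, Cyba and Ncf1 on day 3 against day 0 in both labels, and Cat in WT, kept their calls under every alternative run. The largest adjusted p was 0.00455 for Cybb, 0.012 for Cyba, 0.00326 for Ncf1 and 0.014 for Cat. The lowest count of any of the 9 genes in a library was 79, for Nqo1. Where a call was lost or gained, the cause was not tested.

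The number of members called on day 1 against day 0 in WT was 1. It was 4 by the unadjusted threshold of the study, 4 in the DESeq2 Wald test, 0 in a fit on only the libraries compared, 3 with title style as a covariate, 2 with both WT day 1 libraries numbered 1 averaged, 4 without the 5 double-hyphen libraries (an alternative chosen after seeing the data) and 0 to 2 without single libraries. In KO it was 0, but 3 by the threshold of the study and 1 in the DESeq2 Wald test. By that threshold 1 member each passed between labels on day 0, between labels on day 1 and in the day 3 interaction, where edgeR's adjusted p called 0. On day 3 against day 1 in KO, 5 members were called, 2 without the double-hyphen libraries and 3 to 5 without single libraries. Other counts of members called were 4 to 6 (WT, day 3 against day 0), 3 to 4 (KO, day 3 against day 0) and 5 to 6 (WT, day 3 against day 1) without single libraries.

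With the replicate number as a block within label, the WT day 1 count was 0, with Nqo1 at 2.27 (adjusted p = 0.0531), and Rac2 (0.83, adjusted p = 0.0631) and Gpx1 (-1.45, adjusted p = 0.071) lost their calls on day 3 against day 1 in WT. With the number as a block across labels, Nqo1 on day 3 against day 1 in KO was -1.03 (adjusted p = 0.054), and the block changed no other call. The numbers may not pair libraries between all groups.

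Signs turned for values that were not called. On day 1 against day 0 in WT, leaving out single libraries gave -0.32 to 0.12 for Cybb and -0.40 to 0.14 for Cat. On day 3 in WT it gave -0.11 to 0.17 for Rac2 and -0.47 to 0.064 for Gpx1, which was also 0.21 with total counts, 0.31 with limma on FPKM and 0.075 without the double-hyphen libraries. On day 1 in KO it gave -0.25 to 0.061 for Ncf1, -0.27 to 0.36 for Ncf4 and -0.29 to 0.22 for Cat. Ncf4 there was 0.022 with limma, 0.0019 with title style as a covariate and 0.077 without the double-hyphen libraries, and Cybb was -0.093 without them. On day 3 in KO, Ncf4 was 0.0092 with limma and -0.55 to 0.081 without single libraries. The day 1 interaction of Sod2 was -0.50 without the double-hyphen libraries.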
